A study of Mus musculus with 12 samples.

Results

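Of the 6 prostate libraries from wild-type mice, libraries 1 to 3 and libraries 4 to 6 formed separate sets. The sets were chosen from the measured values, in which the 3 libraries of a set lay close together and apart from the other 3, and no label names them. The difference between them is therefore described here without a test, for the 15973 genes of 39179 that had a log2 value of at least 4 in 3 or more of the 6 libraries. All 6 libraries came from wild-type mice aged 4 months, of a hybrid strain of 129/SvImJ and C57Bl/6J, that had received paraquat, a herbicide that makes cells produce superoxide. The series also has 6 libraries from paraquat-treated mice of the same age and background that were null for the gene under study. Whether the 3 libraries of a set came from separate mice, a pooled sample or repeat preparations of 1 RNA is not stated, nor which lobes of the prostate were taken. Numbers follow the deposition order.

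The mouse prostate consists of ventral, lateral, dorsal and anterior lobes around the urethra, and each lobe secretes a different mixture of proteins under androgen control. A dissected gland also carries smooth muscle, fibroblasts, vessels, fat and blood, lies against the seminal vesicle, and can hold aggregates of B and T lymphocytes. A B cell is recognised by its antigen receptor, which is made of immunoglobulin chains and the signalling partners Cd79a and Cd79b. Each B cell joins its own choice of variable gene segments to a constant region gene, so the segments in use differ between populations of B cells.

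A value is the deposited log2 expression value, so that a difference of 1 is a 2-fold difference, and differences are libraries 4 to 6 minus libraries 1 to 3. Taken pair by pair, libraries differed by a median of 0.089 to 0.139 over the genes kept in the 6 pairs within a set and by 0.273 to 0.351 in the 9 pairs between sets, without regard to sign. A first principal component held 75% of the variance and separated the sets, while the second, with 8%, separated library 4 from libraries 5 and 6. For genes with values of 10 to 11, the median SD within a set was 0.046 for libraries 1 to 3 and 0.058 for libraries 4 to 6, where counting error at the estimated depths alone gives 0.032 and 0.038. The estimated depth was 18.2 to 21.7 M reads in libraries 1 to 3 and 15.3 to 16.4 M reads in libraries 4 to 6, and its part in the differences was not tested. All 15 genes of the luminal epithelium list were kept, among them Krt8 and Krt18. The 9 lobe products took 20.8% to 21.5% of the summed linear values in every wild-type library, with 9530053A07Rik the largest part. Y-linked genes were present in all 6 and Xist was below 4 in all 6.

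The sets differed by at least 1 without overlap in 277 genes that were higher in libraries 4 to 6 (1.73% of the genes kept) and in 500 that were lower (3.13%). With the libraries scaled to a common total, the counts were 205 and 642. Without regard to size, 5374 genes (33.6%) were higher in libraries 4 to 6 with no overlap and 4658 (29.2%) were lower. Because the sets were chosen on these values, these shares are printed as the background against which each gene list is described, and nothing is read from them. At the filter, the gene just inside was 1700023F06Rik, at 4.07 and 3.89 in libraries 5 and 6, and the gene just outside was Rpl30-ps1, at 4.18 in library 5 and 3.45 in library 1. At the size of 1, Zfp772 (6.60 to 6.90 against 7.64 to 7.84) lay just past it and Jakmip1 (3.70 to 4.62 against 5.02 to 5.34) just short of it.

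The sequences that precede 6 of the genes below are given first, because these genes include neighbours that differed alike and neighbours that did not. They are the bases upstream of the RefSeq start (GRCm38.p6, up to 250 bases, on the gene's strand, 5′ to 3′), less any base inside the gene as GENCODE draws it. Capitals mark the TATA box letters TATAAA, which are TTTATA when read on the other strand. They also mark the hexamer AGAACA, core of the DNA element bound by the androgen receptor, which is read as TGTTCT on the other strand. The hexamer was present in 16.1% and the TATA letters in 12.9% of 27025 promoter windows of 250 bases.
Sbp: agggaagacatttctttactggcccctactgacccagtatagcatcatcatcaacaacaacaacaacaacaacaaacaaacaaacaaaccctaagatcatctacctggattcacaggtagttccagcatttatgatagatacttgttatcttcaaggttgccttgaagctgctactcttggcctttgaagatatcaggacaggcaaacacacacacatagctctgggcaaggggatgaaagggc
Sbpl: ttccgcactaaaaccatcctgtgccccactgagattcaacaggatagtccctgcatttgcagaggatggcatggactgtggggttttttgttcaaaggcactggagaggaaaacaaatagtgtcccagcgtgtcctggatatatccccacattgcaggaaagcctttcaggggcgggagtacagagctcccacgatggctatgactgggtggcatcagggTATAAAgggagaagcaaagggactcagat
Tgm4: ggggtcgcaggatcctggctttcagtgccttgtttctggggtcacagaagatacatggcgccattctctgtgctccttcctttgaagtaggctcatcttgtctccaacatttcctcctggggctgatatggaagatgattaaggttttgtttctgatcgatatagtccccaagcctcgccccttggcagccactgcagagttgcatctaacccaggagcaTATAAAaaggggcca
Svs5: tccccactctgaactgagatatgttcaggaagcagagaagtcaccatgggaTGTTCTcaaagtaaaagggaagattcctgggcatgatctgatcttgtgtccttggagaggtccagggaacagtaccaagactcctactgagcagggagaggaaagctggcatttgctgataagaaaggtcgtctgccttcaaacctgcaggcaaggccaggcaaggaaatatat
Scgb1b27: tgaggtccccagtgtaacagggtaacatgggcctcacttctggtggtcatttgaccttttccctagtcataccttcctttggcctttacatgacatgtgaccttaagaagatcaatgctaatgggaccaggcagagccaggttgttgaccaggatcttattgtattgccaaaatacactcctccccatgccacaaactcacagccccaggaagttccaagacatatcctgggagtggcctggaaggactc
Scgb2b27: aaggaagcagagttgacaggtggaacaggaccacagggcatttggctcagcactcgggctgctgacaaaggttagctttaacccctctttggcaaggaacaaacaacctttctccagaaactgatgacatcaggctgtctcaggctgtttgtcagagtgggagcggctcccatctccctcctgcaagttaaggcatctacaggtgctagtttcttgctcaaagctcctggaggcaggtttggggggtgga
Sbp and Sbpl are neighbours on chromosome 17, with windows at chr17:23941428-23941671 on the forward strand and chr17:23955275-23955523 on the reverse strand. The Tgm4 window is chr9:123034491-123034725 on the forward strand, and that of Svs5 is chr2:164332515-164332739 on the forward strand. Scgb1b27 (chr7:34021231-34021480, forward strand) and Scgb2b27 (chr7:34013943-34014192, reverse strand) lie back to back. The TATA letters were found in the windows of Sbpl and Tgm4, and the androgen receptor hexamer in that of Svs5. A match is a description of the letters in this window and says nothing of binding.

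The products of the lobes differed in both directions. Of 3 ventral lobe products, Sbp and Spink1 were higher in libraries 4 to 6 and Sbpl overlapped. Of 3 products of the anterior and dorsal lobes, Tgm4 and Ren1 were lower there, while Gsdma, a gasdermin, was higher by 0.32, at 14.20 to 14.25 against 14.49 to 14.61. Sbp, which encodes spermine-binding protein of the ventral lobe, was at 19.07, 19.07 and 18.99 in libraries 1 to 3 and at 19.91, 19.85 and 19.80 in libraries 4 to 6. The sets did not overlap, and the difference was 0.81. Spink1, a secreted serine protease inhibitor, was at 17.75, 17.74 and 17.67 against 18.98, 18.78 and 18.68, a difference of 1.09. It was the single lobe product of 9 that differed by 1 or more without overlap. Tgm4, the prostate transglutaminase that cross-links seminal proteins, was at 18.70, 18.75 and 18.84 in libraries 1 to 3 and at 17.67, 17.89 and 18.07 in libraries 4 to 6. Its difference was -0.89 and its sets did not overlap. Ren1, which encodes renin, was at 17.94, 17.95 and 17.97 against 17.10, 17.14 and 17.15, a difference of -0.82. Some mouse strains carry a second, near-identical renin gene, so these values may not be those of Ren1 alone.

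The products of the dorsal and lateral lobes moved less. Probasin, Pbsn, was higher by 0.50 in libraries 4 to 6, with values of 18.12 to 18.21 against 18.60 to 18.76. Msmb, encoding beta-microseminoprotein, had a difference of -0.41, from 15.90 to 15.93 down to 15.37 to 15.63. The gene 9530053A07Rik was at 21.16 to 21.24 and at 21.06 to 21.15, so the sets all but touched, with a difference of -0.09. Across the 9 products the sum of linear values barely moved. On the log2 scale it was at 22.00 to 22.03 in libraries 1 to 3 and 22.09 to 22.16 in libraries 4 to 6. Its largest part was 9530053A07Rik. By lobe, the summed ventral products were at 19.48 to 19.56 against 20.34 to 20.52, and the summed anterior and dorsal products at 19.41 to 19.51 against 18.52 to 18.76. In bulk tissue, fewer cells of a kind and less RNA per cell cannot be told apart.

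Sbpl, the spermine-binding protein-like neighbour of Sbp, did not follow it. It was at 11.03 in library 1 and at 6.50 and 6.11 in libraries 2 and 3, while libraries 4 to 6 were at 7.24, 7.15 and 7.38. Library 1 thus stood above all the others, and libraries 2 and 3 stood below the second set, so the sets overlapped. The median over the 9 lobe products was -0.09 and without library 1 it was 0.31.

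**Figure D1:**
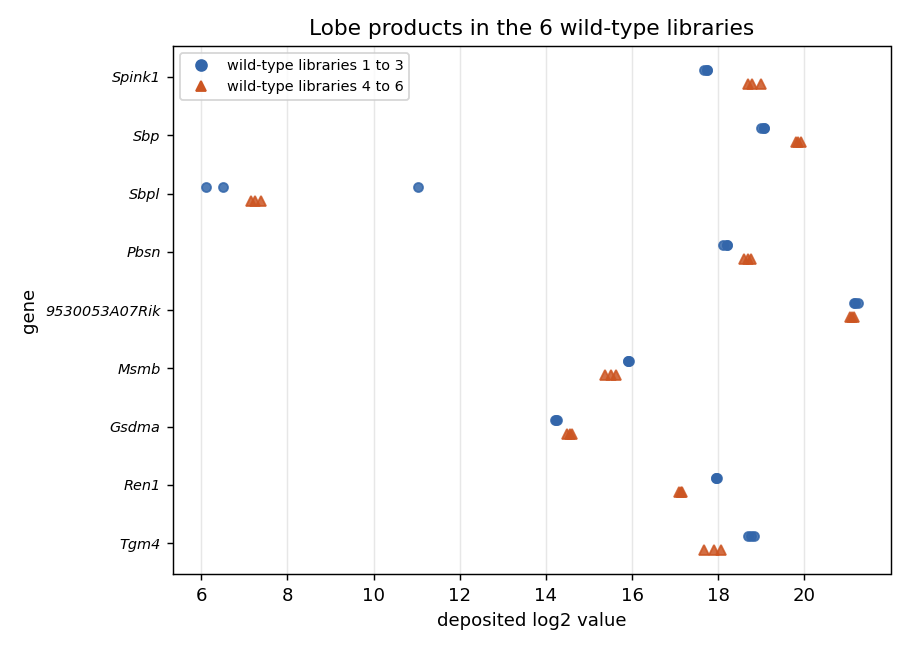
Deposited log2 value (horizontal) of each of 9 lobe products (rows, ventral products at the top, then dorsal and lateral, then anterior and dorsal) in the 6 wild-type libraries. Circles are libraries 1 to 3 and triangles libraries 4 to 6. Sbp and Spink1 lie to the right in libraries 4 to 6, Tgm4 and Ren1 to the left, and library 1 has Sbpl at 11.03.

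Other secreted proteins of the gland went both ways. Of the 34 genes of that list in the table, 17 were kept, of which 6 were higher by 1 or more without overlap and 2 lower, with a median of 0.37. The others, among them the kallikreins of the Klk1 family, did not reach a value of 4 in 3 libraries. Of these 8, Wfdc12, Itln1 and Ltf had a mean below 4 in the set where they were low. Among all genes kept, 1.73% were higher and 3.13% lower by 1 or more without overlap. Wfdc12, a small protease inhibitor with a whey acidic protein domain, was at 2.55, 2.96 and 2.93 in libraries 1 to 3 and at 6.77, 6.88 and 6.63 in libraries 4 to 6, the largest positive difference of all genes kept (3.95). Pnliprp1, a pancreatic lipase-related protein, was at 11.10, 11.06 and 10.99 against 12.75, 12.76 and 12.71, a difference of 1.69. Fgl1 (1.03), the mucin gene Muc19 (1.10), Pnliprp2 (1.18) and the lectin gene Itln1 (1.72) were higher as well. Against them, the iron-binding protein lactoferrin, Ltf, was at 4.26 to 4.64 in libraries 1 to 3 and at 1.79 to 2.32 in libraries 4 to 6, and olfactomedin 4, Olfm4, was at 9.47 to 9.56 and at 7.82 to 7.92. The differences were -2.35 and -1.65.

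The secretoglobin genes Scgb1b27 and Scgb2b27, which encode subunits of small secreted proteins, differed together. Scgb1b27 was at 5.04, 4.62 and 4.47 in libraries 1 to 3 and at 8.62, 8.65 and 8.16 in libraries 4 to 6, a difference of 3.77. Scgb2b27, chosen after its values were known, was at 8.75, 8.68 and 8.64 against 11.52, 11.43 and 11.15, a difference of 2.68. The pair has near-identical relatives in the genome, and how reads that fit several places were counted is not stated.

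Seminal vesicle transcripts, from the neighbouring gland that makes most of the seminal fluid, were lower in libraries 4 to 6. Of the 10 genes of that list, 4 were kept. Of all genes kept, 3.13% were lower by 1 or more without overlap, and so were all 4 of these. Of these, Svs4, Svs5 and Svs2 had a mean below 4 in libraries 4 to 6, so that they passed the filter through the set in which they were high, and the count is no support for the direction. Ceacam10 was at 9.04, 8.95 and 8.72 against 6.05, 6.33 and 5.67 (a difference of -2.89). Svs4 was at 6.54, 6.24 and 6.17 against 3.62, 4.09 and 3.96 (-2.43), and Svs5 at 5.04 to 5.80 against 3.06 to 3.50 (-2.05). Svs2 was at 4.47 to 4.90 against 3.17 to 3.56. Summed, the 4 genes kept were at 9.13 to 9.46 in libraries 1 to 3 and 6.46 to 6.87 in libraries 4 to 6. Ceacam10 was the largest part of this sum, which has the same limit as the count. All 10 genes of the list held at most 0.0038% of the linear total of a wild-type library. The part of seminal vesicle tissue in the other differences was not tested. Of the 11 genes of the epididymis and vas deferens list, Adam28 alone was kept and was higher by 1.45.

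The B cell genes were higher in libraries 4 to 6 almost throughout. All 24 genes of that list in the table were kept. Of these, 17 were higher by 1 or more without overlap and none was lower, with a median of 1.88 against 0.02 over all genes kept. By that rule 1.73% of all genes kept were higher and 3.13% lower. Of the 17, 5 (Fcrl1, Pax5, Fcer2a, Tnfrsf13c and Cr2) had a mean below 4 in libraries 1 to 3 and owed their place above the filter to libraries 4 to 6. Cd79b, a signalling chain of the antigen receptor, was at 5.88, 5.98 and 6.04 in libraries 1 to 3 and at 8.38, 8.54 and 8.33 in libraries 4 to 6. The sets were separated by more than the range within either, and the difference of 2.45 is a 5.47-fold difference. Pax5, the transcription factor that maintains B cell identity, was at 3.27, 3.43 and 2.87 against 5.58, 5.95 and 5.66 (2.54). Fcrl1, a receptor of the Fc receptor-like family, had the largest difference of the list, 2.65.

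Receptors and transcription factors of mature B cells were among them. The low-affinity IgE receptor Fcer2a was higher by 2.37, the coactivator Pou2af1 by 2.26, the BAFF receptor Tnfrsf13c by 2.24 and the transcription factor Spib by 2.23. The complement receptor Cr2 was higher by 1.70 and the chemokine receptor Cxcr5 by 0.99. The genes with the smallest differences were Ebf1 (0.20, overlapping sets), Cd74 (0.33), Bank1 (0.38) and Blnk (0.48). Ighm, the IgM heavy chain, was at 13.14, 13.10 and 13.14 against 13.90, 13.87 and 13.78, so that it differed by 0.72.

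**Figure D2:**
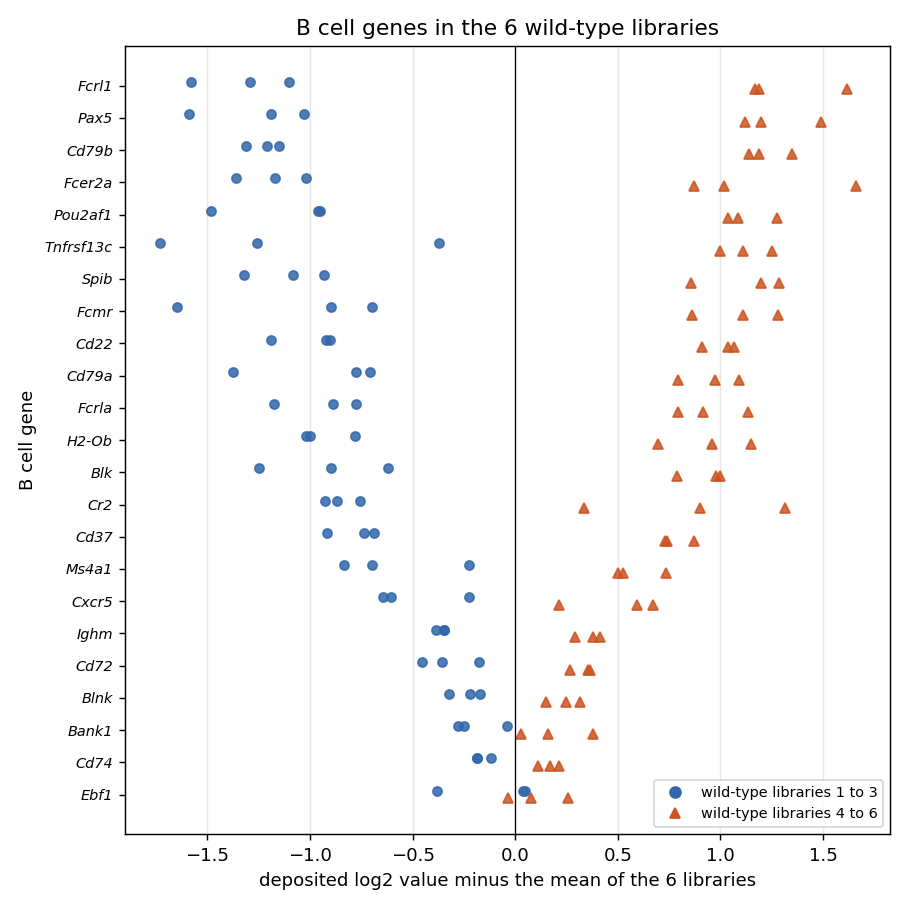
Each row is a B cell gene and each symbol 1 library, placed at its deposited log2 value minus the mean of the 6 wild-type libraries. Circles are libraries 1 to 3 and triangles libraries 4 to 6. Of the 23 genes drawn, the symbols of the sets are apart in 22, and Ebf1 is the gene in which they overlap.

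Antibody constant region genes were higher as well, while the other plasma cell genes went both ways. Of 14 plasma cell genes kept, 6 were higher by 1 or more without overlap and none lower. Among all genes kept the shares were 1.73% and 3.13%. The median was 0.72, and all of the 6 but Mzb1 were constant region genes. Txndc5 (-0.12) and Sdc1 (-0.08) were lower without overlap, Prdm1 (-0.34) overlapped and Jchain (0.20) was higher. Iglc2, a lambda light chain constant region, was at 6.11, 6.03 and 5.93 against 9.33, 9.22 and 9.12, a difference of 3.20. The kappa constant region Igkc, chosen after its values were seen, was at 11.91 to 11.95 against 13.07 to 13.28, a difference of 1.24. Ighg1 (1.99) and Ighg3 (1.90) encode IgG heavy chains, and Mzb1 (2.04) is a chaperone of antibody-secreting cells. Ighe, the IgE heavy chain, was at 1.68 to 2.76 against 4.50 to 5.45, a difference of 3.02. Igha, the IgA heavy chain, differed by 0.34, the smallest difference of the 9 constant region genes.

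The variable segments did not follow the constant regions. Of the 59 segments kept, 23 were higher by 1 or more without overlap and 11 lower, with a median of 0.10 and a range of -4.87 to 3.50. Of these 34, 25 had a mean below 4 in the set where they were low. The shares over all genes kept were 1.73% higher and 3.13% lower. Igkv4-61 was at 6.66, 6.39 and 6.32 in libraries 1 to 3 and at 0.97, 0.75 and 3.03 in libraries 4 to 6. Igkv8-19 went the other way, at 0.90, 1.58 and 2.55 against 4.78, 5.41 and 5.34. Among the heavy chain segments, 8 of 15 were lower by 1 or more and 3 (Ighv9-3, Ighv1-78 and Ighv6-6, named afterwards) higher, with Ighv5-17 at 5.37 to 5.78 against 2.83 to 3.17. All 3 lambda segments kept were higher, Iglv2 by 3.12, Iglv3 by 2.88 and Iglv1 by 2.59. Segments of a family are near-identical, so reads may have been divided between them.

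The segments were also compared pair by pair. The sets were chosen on values that include these, so closeness within a set was fixed in advance and is no result. Over the 59 segments, pairs within a set differed by a median of 0.227 to 0.326 without regard to sign, and pairs from different sets by 1.098 to 1.357. For all genes kept these medians were 0.089 to 0.139 and 0.273 to 0.351. Over the same segments the null libraries gave 0.183 to 0.240 within their sets of 3 and 1.001 to 1.299 between them. Whether the libraries of a set share an animal or a pool was not tested.

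**Figure D3:**
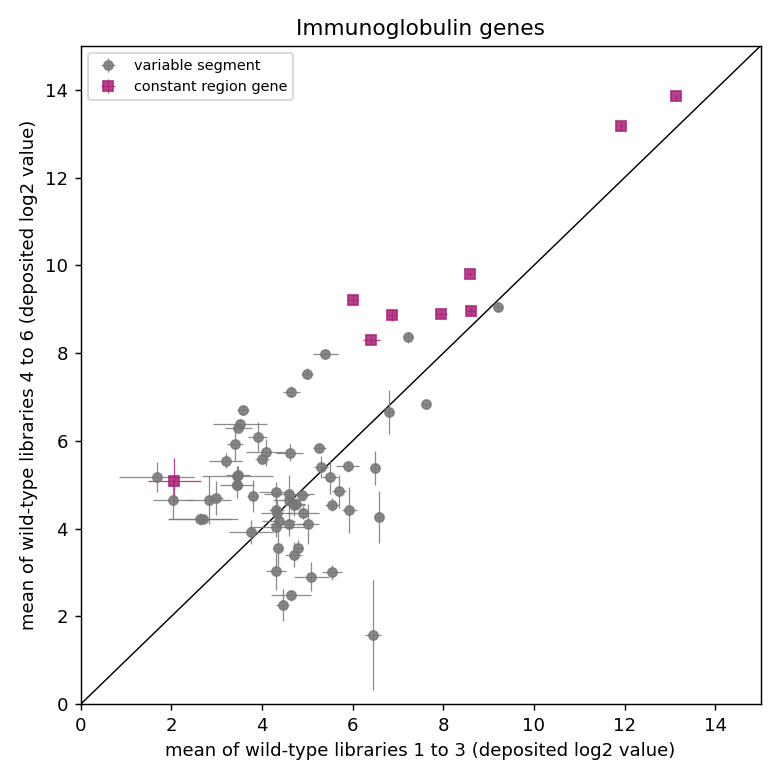
Each point is an immunoglobulin gene, placed at its mean deposited log2 value in wild-type libraries 1 to 3 (horizontal) and 4 to 6 (vertical), with bars of 1 SD over 3 libraries. All 9 constant region genes (squares) lie above the diagonal of equal values, while the 59 variable segments (circles) lie on both sides of it.

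T cell genes were higher by less. Of 17 kept, 9 were higher by 1 or more without overlap and none lower, against 1.73% and 3.13% of all genes kept. The median was 1.01. The T cell receptor constant region Trbc2 was at 5.07, 4.62 and 4.27 against 6.55, 6.63 and 6.27, a difference of 1.83. The coreceptor Cd4 differed by 1.42 and the homing receptor Ccr7 by 1.48. Cd8a (0.09) and Cd28 (-0.08) had overlapping sets. In the list of lymphoid tissue stroma, which includes lymphotoxins, 5 of 10 genes were kept. Of these, 3 were higher by 1 or more without overlap, where 1.73% of all genes kept were. Glycam1 and Lta were kept through libraries 4 to 6 alone. Glycam1, a ligand on the vessels through which lymphocytes enter lymph nodes, was at 1.93, 2.92 and 1.09 against 4.51, 4.33 and 4.01 (2.31). The lymphotoxin genes Lta (1.40) and Ltb (1.33) were higher, and the B cell chemokine Cxcl13 differed by 0.58. Ccl21a, another chemokine, differed by 0.34 with overlapping sets. Ccl19 and Madcam1, other genes of lymphoid tissue, were below 4 in all 6 libraries. At these low values Ccl19 differed by 1.57 and Madcam1 by -0.74, while a second entry of Ccl19 overlapped (-0.05).

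Other blood and immune genes did not move as one. Of the 5 haemoglobin and red cell genes kept, 4 were higher by 1 or more without overlap, against 1.73% of all genes kept. Hba-a2 was at 5.43, 6.30 and 5.77 against 7.78, 7.77 and 7.66 (1.90), and Hba-a1 (1.79), Hbb-bs (1.33) and Hbb-bt (1.07) followed. Alas2, the first enzyme of haem synthesis in red cell precursors, differed by -0.14. Haemoglobin genes and lymphocyte genes were thus higher in the same 3 libraries, and the part of blood in the lymphocyte differences was not tested. The summed haemoglobin list was at 9.52 to 9.54 in libraries 1 to 3 and 10.58 to 10.87 in libraries 4 to 6. The summed B cell list was at no more than 14.05 and at 14.62 to 14.74. A linear sum is carried by its most abundant members, so it need not follow the median of the list. Macrophage genes had a median of -0.03 over 12 genes, none of them differing by 1. Itgam was at 6.90 to 7.32 against 6.32 to 6.64, and Cd14 at 7.41 to 7.68 against 8.06 to 8.10.

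Stromal genes differed little as groups, and their differences followed transcript length. Over the 35 fibroblast and smooth muscle genes, all of them kept, the median was 0.02. Of these, 12 were higher and 12 lower without overlap, against 33.6% and 29.2% of all genes kept, and Myocd alone differed by 1 or more. Myocd, the coactivator that drives smooth muscle genes, was at 5.84, 6.28 and 6.56 in libraries 1 to 3 and at 4.54, 3.82 and 4.60 in libraries 4 to 6, a difference of -1.91. Contractile genes, which Myocd activates in smooth muscle, went both ways. Myl9, a myosin light chain, was at 13.02, 13.00 and 13.09 against 13.79, 13.74 and 13.62 (0.68). Desmin, Des, differed by 0.65, Tpm2, a tropomyosin, by 0.61, Smtn by 0.60, Actg2 by 0.55 and Acta2, smooth muscle actin, by 0.47. The long gene Flna, an actin cross-linking protein, had -0.49. Synpo2 (-0.18), Mylk (-0.15) and the myosin heavy chain Myh11 (-0.13) were also lower without overlap, and Tagln (-0.01) overlapped.

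In fibroblasts, Pdgfra, the receptor for platelet-derived growth factor that marks them, was at 9.19, 9.26 and 9.27 against 8.49, 8.35 and 8.40, a difference of -0.83. The collagen genes Col5a1 (-0.71) and Col3a1 (-0.43) and the fibrillin gene Fbn1 (-0.34) were lower too. Thy1, a surface protein of fibroblasts, was at 9.38, 9.35 and 9.40 against 10.07, 10.03 and 9.93 (0.63), and Lum (0.37) and Dpt (0.30), small matrix proteins, were higher. The longest annotated transcript is 6834 bases for Pdgfra, 8406 for Col5a1 and 1735 for Thy1. Spearman's correlation between transcript length and difference, given as a description across genes, was -0.88 over the 20 fibroblast genes, -0.73 over the 15 smooth muscle genes and -0.41 over the 15817 genes kept that had a length. All these genes share the same 6 libraries. Among the stromal genes shorter than 3075 bases, the median of the genes kept, 15 had a median difference of 0.37, and the 20 longer ones had -0.16. Over all genes kept these medians were 0.20 and -0.13.

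The other tissue components differed from each other. Endothelial genes had a median of -0.04 over 10 genes, with the surface mucin Emcn at 8.23 to 8.51 against 9.26 to 9.40 (0.90) and the junction protein Cdh5 at 7.63 to 7.74 against 6.91 to 7.23 (-0.65). Nerve and Schwann cell genes had a median of 0.00 over 8. Skeletal muscle genes had a median of 0.34 over 8 kept of 14, and urothelium genes -0.15 over 4 of 7. Fat cell genes were higher, with a median of 0.75 over 9. Of them 3 were past 1 without overlap, as were 1.73% of all genes kept. Adipoq, the fat cell hormone adiponectin, was at 4.74, 5.31 and 5.52 against 6.78, 6.58 and 6.53 (1.44), followed by resistin, Retn (1.40), and leptin, Lep (1.30). Retn and Lep had means below 4 in libraries 1 to 3. Neuroendocrine genes had a median of -0.47 over 4, with chromogranin A, Chga, at 4.75 to 4.86 against 3.69 to 4.21.

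Housekeeping genes, often used to scale expression between samples, were not level between the sets. All 22 were kept, with a median of 0.22, 15 higher and 3 (B2m, Gusb and Tbp) lower without overlap, and none differing by 1. Over all genes kept, 33.6% were higher and 29.2% lower without overlap. Ywhaz, a 14-3-3 protein, was at 11.63, 11.63 and 11.61 against 12.36, 12.28 and 12.25 (0.67). Actb, cytoplasmic actin, was at 13.95, 13.94 and 13.87 against 14.67, 14.54 and 14.37 (0.61). Rpl13a (0.59), Rps18 (0.47), Pgk1 (0.44) and Rplp0 (0.42) followed. B2m, the light chain of class I histocompatibility molecules, had a difference of -0.41, opposite to most of the list, and Gusb and Tbp each had -0.13. These 3 were chosen after their values were seen. Gapdh, at 5.21 to 5.82 against 5.78 to 5.92, overlapped, and since it has many processed pseudogenes its low value is uncertain.

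Most cytosolic ribosomal protein and nuclear respiratory chain genes were higher in libraries 4 to 6 as well. Of 71 cytosolic ribosomal protein genes kept, 63 were higher without overlap and 2 (Rpl29 and Rps6) lower. The shares over all genes kept were 33.6% and 29.2%. The 71 genes had a median difference of 0.59 and a median transcript length of 1106 bases. Rps28 (1.06) and Rpl21 (1.03) were past 1, and Rpl14 was at 12.54, 12.48 and 12.30 against 13.67, 13.40 and 13.18. Of 78 nuclear respiratory chain genes, which encode subunits of the mitochondrial complexes, 71 were higher without overlap and none lower, with a median of 0.53 and none past 1. Ndufa11, a complex I subunit, was at 9.65, 9.60 and 9.59 against 10.70, 10.65 and 10.42 (0.98). Of the 13 protein-coding genes of the mitochondrial genome, 8 were kept, with a median of 0.09. The 13 together took 1.92% to 2.02% of the linear total in libraries 1 to 3 and 1.54% to 1.67% in libraries 4 to 6, and the members went both ways. mt-Co1 was at 17.05, 17.08 and 17.04 against 16.18, 16.38 and 16.43 (-0.72). Likewise mt-Nd5 was at 14.83 to 14.93 against 13.97 to 14.20 (-0.79), while mt-Nd6 had 0.34. Over the 6 libraries mt-Co2 lay at 3.89 to 5.06 and mt-Co3, not kept, at 2.84 to 4.16, while the other members kept lay at 13.72 or above. How reads of the low members were counted is not stated, so the share may not be that of the whole mitochondrial genome.

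With the genes split by transcript length into 5 groups of equal size, the median difference went from 0.33 for the shortest, with a median length of 943 bases, through 0.17, 0.04 and -0.08 to -0.22 for the longest, with 6485 bases. Among the shortest, 4.52% were higher by 1 or more without overlap and 3.38% lower, and among the longest 0.411% and 5.15%. Library 4 deviated most among the shortest genes, by 0.23 from the mean of the 6 libraries, against 0.16 and 0.13 for libraries 5 and 6. The same groups gave 0.27 and -0.21 at the ends for null libraries 4 to 6 minus 1 to 3. The cause of the trend was not tested. With the trend removed from each library, the median was 1.74 for B cell genes, 0.17 for housekeeping genes and 0.09 for stromal genes.

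**Figure D4:**
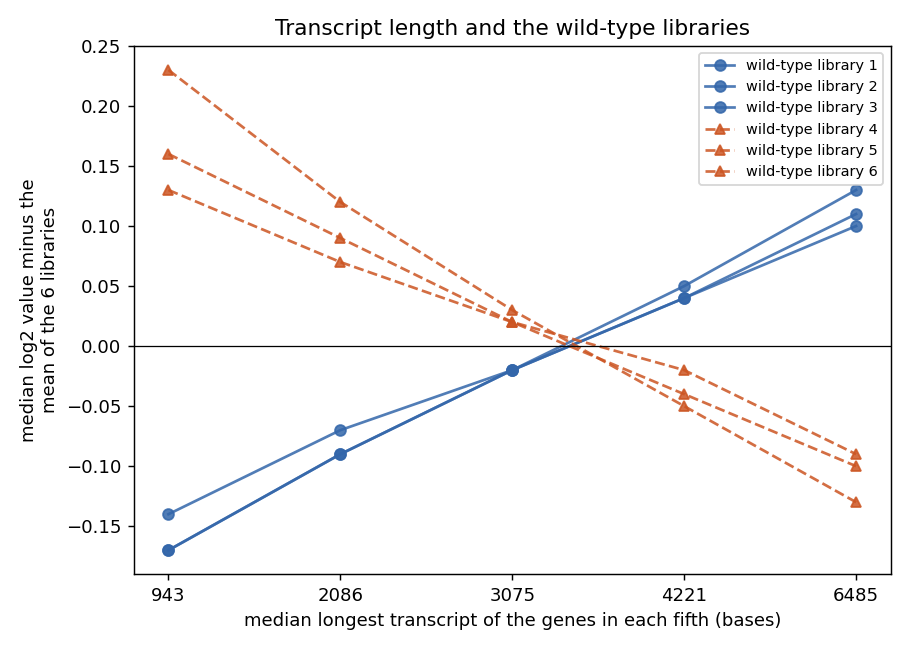
Genes kept are split into 5 groups of equal size by the longest annotated transcript (horizontal, median length in bases), and each line is 1 wild-type library, at its median log2 value minus the mean of the 6 libraries (vertical). Libraries 1 to 3 (circles) lie between -0.17 and -0.14 at the shortest genes and between 0.10 and 0.13 at the longest, and libraries 4 to 6 (triangles) between 0.13 and 0.23 and between -0.13 and -0.09.

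**Figure D5:**
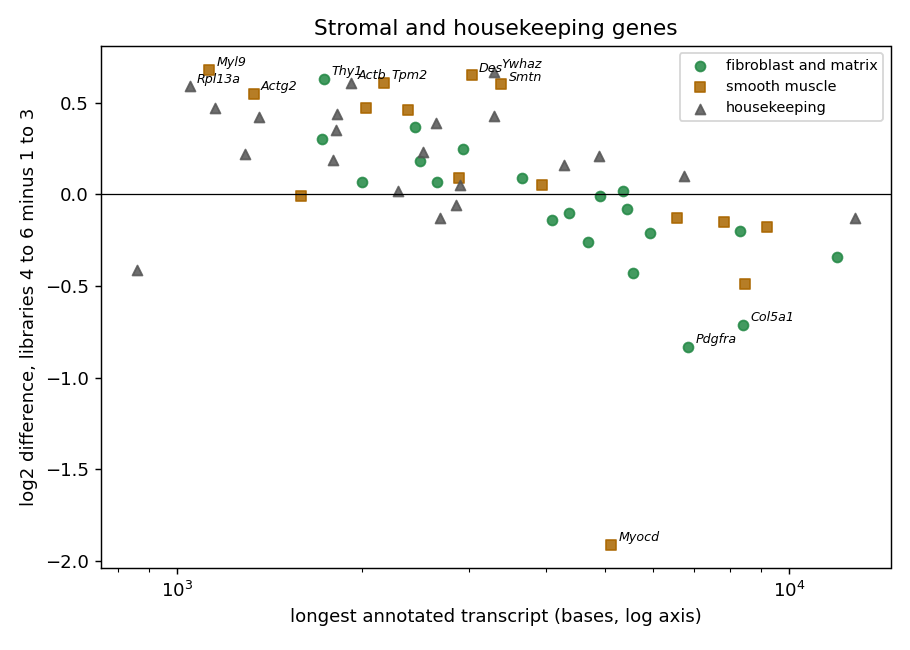
Each symbol is a gene of the fibroblast and matrix, smooth muscle or housekeeping list, at its longest annotated transcript in bases (horizontal, log axis) and its log2 difference, libraries 4 to 6 minus 1 to 3 (vertical). Shorter stromal genes lie mostly above 0 and longer ones mostly below it, and Myocd stands apart at -1.91.

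Several of the largest differences belonged to genes outside the cell type lists. Rpl29, a ribosomal protein gene, was at 10.41, 10.33 and 10.46 in libraries 1 to 3 and at 5.24, 5.43 and 5.38 in libraries 4 to 6. It went against most ribosomal genes, by -5.05, a 33.2-fold difference, and was at 10.19 and 11.08 in the means of the null sets. Rpl29 has processed copies in the genome, so its reads are uncertain. Gad2, an enzyme that makes the transmitter GABA, was at 8.50, 8.54 and 8.54 against 3.71, 3.90 and 3.91 (-4.69). Nxpe4 was at 8.98, 9.06 and 9.10 against 4.91, 2.53 and 4.94 (-4.92). Treh, the enzyme that splits trehalose (-3.25), the antimicrobial lectin Reg3b (-3.07), Guca1b (-2.82) and the GTPase gene Rab44 (-2.51) were lower too. Tcaf3 was an abundant transcript in both sets, at 14.73, 14.84 and 14.96 against 11.94, 12.37 and 12.55 (-2.56). In the positive direction, outside secretory, secretoglobin, B cell and immunoglobulin genes, those named for size were Rnase2a (3.68), Ccnb1ip1 (3.32) and Xlr3a (2.83). Xlr3a was at 4.14, 4.51 and 4.41 against 7.21, 7.18 and 7.15, while its close relative Xlr3b, chosen after its values were known, lay at 6.23 to 6.55 against 6.28 to 6.43.

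Ccnb1ip1 and Rnase2a lie in 1 stretch of chromosome 14. Between 50765415 and 51256112 (GRCm38), 15 genes were kept and 4 differed by 1 or more without overlap, namely Ccnb1ip1 and Rnase2a upward and Rnase1 and Gm26782 downward. This stretch was chosen after its values were seen and around these genes, so its share of 26.7% is no result. Over all of chromosome 14 the share past 1 without overlap in either direction was 7.16%. Ccnb1ip1, which takes part in meiotic crossing over, was at 1.88, 2.89 and 2.01 against 5.63, 5.49 and 5.62. Its neighbour Parp2 differed by 0.32 and Ttc5, on the other side, by -0.01. Rnase1, a secreted ribonuclease, was at 14.08, 14.08 and 14.11 against 11.18, 11.21 and 11.04 (-2.95). Rnase2a, a ribonuclease of the eosinophil type, was at 3.24, 1.42 and 1.05 against 6.12, 5.08 and 5.57. Between them and Ccnb1ip1, Rnase4 differed by 0.82 and Ang, whose transcripts overlap those of Rnase4, by -0.12.

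Luminal and basal cell genes differed less than the secreted products. The 15 luminal genes had a median of 0.21 and none past 1, with the keratins Krt8 at 12.30 to 12.38 against 12.84 to 12.99 (0.58) and Krt18 at 14.16 to 14.21 against 14.65 to 14.81 (0.54). The 11 basal genes had a median of -0.09, with Krt15 (0.60) and Krt5 (0.48) above 0 and the long genes Col17a1 (-0.35) and Lama3 (-0.33) below. Genes of the proximal luminal cells near the urethra had a median of 0.19 over 8, with the chaperone clusterin, Clu, at 12.80 to 12.83 against 11.88 to 11.99 (-0.89) and Wfdc2 at 7.49 to 7.87 against 8.40 to 8.56 (0.82). Among 17 homeobox and lobe factor genes kept, the median was -0.14 and none was past 1. Hoxd8 (0.73) and Hoxd9 (0.70), which pattern the urogenital tract along its length, were the most different.

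Androgen-responsive genes had a median of -0.21 over 19. Of them, 10 were lower without overlap, where 29.2% of all genes kept were, and nothing is read from the count. Steap4, a metalloreductase, was at 7.56, 7.52 and 7.59 against 5.36, 6.18 and 6.27 (-1.62), and Adam7 at 8.37 to 8.58 against 7.15 to 7.51 (-1.10). Among genes that respond to glucocorticoids the median was -0.09 over 9, and Zbtb16, a zinc finger repressor, was at 9.27, 9.57 and 9.64 against 7.64, 7.68 and 8.15 (-1.67). The metallothioneins Mt1 (0.53) and Mt2 (0.42) went the other way from Fkbp5 (-0.46).

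Lists of stress and time-of-day genes had medians between -0.11 and 0.26. The unfolded protein response list had a median of 0.21 over 16, but its members split, with the chaperones Creld2 at 12.81 to 12.90 against 13.69 to 13.77 (0.87) and Hsp90b1 (0.76) above 0 and the cochaperone Dnajb9 at 11.54 to 11.72 against 10.59 to 10.83 (-0.94). Targets of NRF2, the factor that answers oxidative stress, had a median of 0.08 over 10, with the peroxiredoxin Prdx1 at 0.61. Immediate early genes, which respond within minutes to handling and signals, had a median of -0.11 over 14. Fosb was at 5.0 in library 1, at 4.84 and 4.61 in libraries 2 and 3 and at 6.00 to 6.50 in libraries 4 to 6 (1.39), while Junb had -0.47. Clock genes had a median of -0.06 over 15. Arntl was at 8.92 to 8.97 against 8.04 to 8.45 (-0.70), with Cry1 at -0.44 and Dbp at 0.30. Nr1d1 (-0.05), Nr1d2 (-0.06), Per2 (-0.12) and Per3 (-0.08) had overlapping sets. Interferon response genes had a median of -0.07 over 15, with Gbp2 at 8.33 to 8.40 against 7.18 to 7.51 (-1.05) and Ifit1 at 0.58. Proliferation genes had a median of 0.26 over 13, with Mki67 at 7.10 to 7.35 against 7.81 to 7.91 (0.61) and Cdc20 at -0.68.

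The 4 Y-linked genes kept were all lower in libraries 4 to 6 without overlap, with a median of -0.47. Among all genes kept, 29.2% were lower without overlap. The longest transcripts of the 4 are 3114 to 7974 bases, above the median of 3075, and the part of length was not tested. Eif2s3y, a translation initiation factor gene, was at 10.38, 10.36 and 10.33 against 9.26, 9.27 and 9.32 (-1.07), and was at 10.39 in both means of the null sets. Uty (-0.48), Kdm5d (-0.46) and Ddx3y (-0.24) differed by less.

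In the null libraries some of these genes lay outside the wild-type range. Wfdc12 was at 12.21 and 10.14 in the means of null libraries 1 to 3 and 4 to 6, above both wild-type sets, and Svs4 at 14.58 and 16.43. Sbp was at 16.53 and 15.62, and Pbsn at 11.70 and 10.42, below both wild-type sets. Gad2 was at 8.34 and 10.06 in the null sets, near or above wild-type libraries 1 to 3. Cd79b was at 6.40 and 7.34, between the wild-type sets. Library numbers do not pair wild-type with null libraries.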

How the data were processed

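Prostate RNA of 12 libraries was selected for poly-A, prepared with a TruSeq kit and sequenced on a HiSeq2000, per the labels' protocols. Per the submitters' processing notes, DESeq, Cufflinks, TopHat and CASAVA 1.8.2 were used and the builds were GRCm38.p2 and mm9, but the role of each is not said. Normalization, read counting and strand setting are steps not given in the sources used here. What the authors deposited is 1 log2 value per gene and library, used here without a pseudocount. Depths were estimated from the spacing of linear values between 2353 and 5793, and are approximate.

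The sets, lists and naming rule were chosen with earlier results of these data known. Of 39179 Ensembl IDs, 37693 (96.2%) matched the GENCODE annotation of GRCm38, which gave symbols, positions and the longest transcript. Genes reaching 4 in at least 3 of the 6 wild-type libraries were kept. For each, the set means, their difference and the overlap of the sets were computed in Python 3.11.15 with pandas 2.3.3, and the counting was tested on simulated data. No test between sets was made. Named genes were the 12 per direction with the largest difference without overlap and a symbol that is no predicted gene, up to 4 members of each of 37 lists with the largest absolute difference (8 for B cell, smooth muscle, fibroblast and housekeeping genes, all lobe products). Other genes, further list members included, were named after their values were seen. Other scalings, filters, sizes, removal of the length trend and leaving out each library were tried. The gene under study and a few other items are not reported here.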

Additional observations from a re-analysis of the deposited data

Results flagged for a closer look

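Among the 6 wild-type libraries, 3 of 178 named genes had 1 library far from the others. The cutoff is one that about 1 in 20 groups of 6 alike values passes by chance. These libraries form separate sets, and many genes were named for the difference between them, so that rate does not apply here. Sbpl was at 11.03 in library 1 and at 6.11 to 7.38 in the other 5. Chgb, a secretory granule protein of neuroendocrine cells, was at 2.36 in library 5 and at 3.44 to 4.08 in the others. Syp, a synaptic vesicle protein, was at 3.99 in library 6 and at 4.86 to 5.36 in the others. Both lie near the filter of 4. The cause of these values was not tested.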

How the results depend on the processing

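The sets are not labelled, so whether they reflect animals, dissection or preparation cannot be told apart, and low values are the least precise because the libraries hold an estimated 15.3 to 21.7 M reads. The counts of 277 higher and 500 lower genes were 487 and 900 with no filter on low values and 141 and 293 with the filter at 6. They were 1996 and 1926 at a size of 0.5 or more and 41 and 51 at 2 or more. The share that was higher was 50.9% at 0.5 and 44.6% at 2, and the cause of that change was not tested. Scaled to library totals, 24.2% of the genes counted were higher (205 of them), against 35.6% as reported, and 26.1% with the length trend removed (201 higher, 569 lower). Leaving out each library in turn gave 261 to 341 higher and 449 to 600 lower genes.

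The B cell median of 1.88 was 1.74 with the length trend removed and 1.81 to 1.94 when a library was left out. The housekeeping median of 0.22 was 0.13 with library totals, 0.17 with the length trend removed and 0.22 to 0.24 without a library. The stromal median of 0.02 was -0.08 with library totals, -0.04 with quantile normalization, 0.09 with the length trend removed and 0.00 to 0.04 without a library. The lobe product median of -0.09 was 0.11 with the length trend removed and ran from -0.11 to 0.31 without a library, the highest value being the one without library 1. With the length trend removed, the dorsal and lateral lobe list changed sign to 0.11 and 9530053A07Rik, its longest gene, to 0.20. The mitochondrial genome median of 0.09 became -0.28 with the length trend removed and -0.17 with no filter. The causes of these changes of sign were not tested. No paired analysis was possible because the libraries carry no replicate number that links the sets.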
